A study of Mus musculus with 18 samples.

Results

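Transcripts annotated as targets of nonsense-mediated decay (NMD) were followed in mouse tumour cells with and without a CRISPR guide against Nat10, whose protein NAT10 places N4-acetylcytidine on RNA. The members were all transcripts with the deposited type nonsense_mediated_decay in genes with at least 100 summed estimated counts in every library of a table. They were 4290 transcripts of 2844 genes out of 87073 listed transcripts in MCA205 cells, 4398 of 2910 genes out of 89209 in TC1 cells, and 4288 of 2880 genes out of 87912 in TC1 tumours. Over the 3 tables this made 4992 distinct transcripts. The measure was the share of a transcript, its estimated counts as a percentage of the summed counts of its gene, so a change in the level of the whole gene alone does not move it.

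The study held 18 libraries in 6 groups of 3, each table comparing wild-type libraries with libraries labelled sgNAT10. The groups were MCA205 cells in culture, TC1 cells in culture, and subcutaneous TC1 tumours taken on day 8, each as wild type and as sgNAT10. MCA205 is a mouse fibrosarcoma line. The labels call TC1 a fibrosarcoma as well, whereas the name usually stands for lung epithelial cells that carry oncogenes of a papillomavirus. The labels name no separate sgNAT10 clones and no further allele or agent, and tumour RNA also comes from cells of the host.

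Nonsense-mediated decay destroys messenger RNAs on which the ribosome stops too early. In mammals the usual signal is an exon junction complex, a protein mark left by splicing, that remains downstream of the stop codon: the helicase UPF1, with UPF2 and UPF3B, then recruits the endonuclease SMG6 to cut the RNA. Many splicing factors and ribosomal proteins limit their own amounts by splicing part of their RNA into such a form, often by including a so-called poison exon.

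Reference models of these transcripts showed the early stop that the type stands for. Of the 4992 transcripts, 4967 (99.5%) were found in GENCODE M21 on GRCm38 (mm10), 4959 had an annotated stop codon, and 4930 had that stop more than 50 bases before the last exon junction. The median distance from stop to last junction was 332 bases with 3 junctions after the stop, and the median reading frame was 297 bases long against 1557 bases for the longest coding transcript of the gene. The stop lay in exon sequence shared with a coding transcript in 2829 transcripts (57.0%), in an exon that no coding transcript overlaps in 1109 (22.4%), in added sequence of an extended or retained exon part in 700 (14.1%), and at the stop of a coding transcript in 300 (6.05%).

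The last 30 bases of the reading frame are printed for the transcripts whose shares are described most fully below, because the stop codon, in capitals, is followed by further exon junctions in each. They were read on the coding strand from GENCODE M21 transcripts.
Rpl12 ENSMUST00000102811: gggtctgtctccgaagaaagttggcgaTGA
Rpl22l1 ENSMUST00000193168: ataggaacagtttctacgggagaaggtTAA
Srsf6 ENSMUST00000017065: gccatgacgacagcagccttttgccatTAG
Samhd1 ENSMUST00000123932: tcgaacacagtctcggagtggggtaccTAG
Ddx5 ENSMUST00000133426: accgatgtggcctccagagggctaggtTAG
Hnrnpa1 ENSMUST00000230489: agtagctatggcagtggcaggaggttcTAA
Cpsf1 ENSMUST00000231042: tggagtatgacccaggcactcatgaccTGA
Usp4 ENSMUST00000194224: gggaaactcctcaaactcaactgcctgTGA
Kpna2 ENSMUST00000145331: aaccggaacaaccaggaaattgctttcTAG
Nprl3 ENSMUST00000136903: ctgaaatgtgcggccaaaaatttgaacTGA
Tbk1 ENSMUST00000219400: ctcattgtcttacgagattgggcgggaTGA
Mdm2 ENSMUST00000155285: ttgatccgagcctgggtctgtgtgagcTGA
Ncaph2 ENSMUST00000145259: ctggctggaccagatctgcatttctttTGA

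In mm10 the Rpl12 stop is at chr2:32962594-32962596 on the plus strand, in exon 3 of 7, and ends a frame of 255 bases where the coding transcript has 498. The Rpl22l1 stop, chr3:28806760-28806762 on the plus strand, is in exon 3 of 4 and ends a frame of 195 bases against 369. Srsf6 stops at chr2:162932964-162932966 on the plus strand, in exon 3 of 7, itself 268 bases long, after 408 bases against 1020, although a transcript annotated as coding ends at the same stop. The stops of Samhd1 (chr2:157121933-157121935, minus strand, exon 4 of 15) and Ddx5 (chr11:106783954-106783956, minus strand, exon 11 of 12) end frames of 453 and 1221 bases against 1977 and 1848. Hnrnpa1 also shares its stop with a coding transcript: the one at chr15:103244012-103244014 on the plus strand ends a frame of 1122 bases, as long as that of the coding transcript, and 3 junctions follow it. Cpsf1 (chr15:76603343-76603345, minus strand, exon 4 of 37) stops after 270 of 4353 bases, Tbk1 (chr10:121572013-121572015, minus strand, exon 5 of 21) after 366 against 2190, and Ncaph2 (chr15:89360379-89360381, plus strand, exon 2 of 20) after 117 against 1827. The other 4 stops are in Usp4 at chr9:108384402-108384404 on the plus strand, Kpna2 at chr11:106992112-106992114, Nprl3 at chr11:32255498-32255500 and Mdm2 at chr10:117694979-117694981, the last 3 on the minus strand.

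Libraries held between 51661298 and 78501790 estimated counts, and in genes of at least 100 counts coding transcripts took between 88.3% and 91.7% of them. Nat10 RNA was 13.5 ± 0.866 FPKM in wild-type and 13.5 ± 0.238 in sgNAT10 MCA205 cells, 14.6 ± 1.07 and 12.7 ± 1.29 in TC1 cells, and 15.5 ± 0.699 and 14.9 ± 2.25 in tumours (SD, n = 3), with no call in edgeR. RNA level does not show whether the guide edited the gene, so the groups rest on the labels. None of Nat10, Myc, Cdk2 and Dnmt1, the genes of the series title, had a transcript of this type in the tables. Markers of other tissues differed between libraries: liver genes summed to 0.632 and 0.716 FPKM in MCA205 wild type 1 and sgNAT10 2, against 30.3 to 78.8 in the other 4 MCA205 libraries. In tumours they summed to 1.38, 46.6 and 187 FPKM in wild type and 456, 504 and 488 in sgNAT10. TC1 cells had the highest liver sums, between 614 and 1163 FPKM in every library, and macrophage genes there summed to 41.8 to 49.7 FPKM in wild type and 72.2 to 135 in sgNAT10. Their part in the cell line results was not tested. No label says that libraries come from separate cultures or animals, so p-values measure the spread between these libraries, which may be technical.

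Together, nonsense-mediated decay transcripts took between 1.45% and 2.09% of the counts of a library, and the genotypes separated in tumours alone. In MCA205 cells the summed share was 1.66%, 1.76% and 1.65% in wild type and 1.64%, 1.70% and 1.64% in sgNAT10. The TC1 cells held 1.55%, 1.52% and 1.58%, then 1.45%, 1.52% and 1.70%. In tumours it was 1.73%, 1.81% and 1.74% in wild type and 2.00%, 2.09% and 1.97% in sgNAT10. The genotypes overlapped in both cell lines, whereas every sgNAT10 tumour lay above every wild-type tumour. Exact two-sided permutation tests gave p = 0.5, 0.9 and 0.1, of which 0.1 is the smallest that 3 libraries against 3 allow, so no comparison could pass 0.05.

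**Figure D1:**
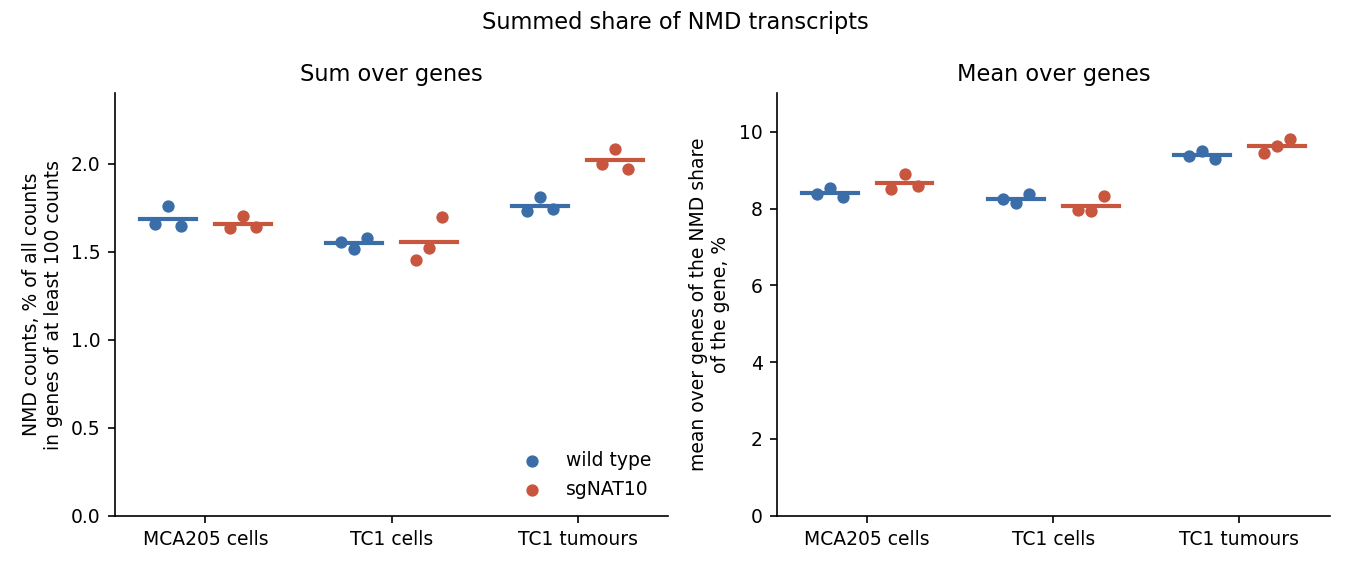
Summed share of nonsense-mediated decay transcripts, in percent, for each library, on all counts and as a mean over genes; dots are libraries, wild type in blue and sgNAT10 in red, and bars are means of 3. On all counts the 3 sgNAT10 tumours lie between 1.97% and 2.09%, above the wild-type tumours at 1.73% to 1.81%, while the genotypes overlap in both cell lines.

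The tumour difference was 0.258 percentage points, and interferon-induced guanylate-binding proteins held a large part of it. Splitting it gave 0.151 points from genes whose overall level differed and 0.107 points from shares within genes. Gbp4, a guanylate-binding protein induced by interferon, contributed 0.0858 points (33.3%), Gbp6 0.0376 and Gbp5 0.0131, whereas Rpsa, a protein of the small ribosomal subunit, contributed -0.0700. Ddx5, an RNA helicase of splicing, gave 0.0319 points, Anxa1 0.0249 and Hnrnpa1 0.0125. Without the Gbp genes, an alternative chosen after seeing the data, sgNAT10 tumours held 1.83%, 1.94% and 1.84% against 1.72%, 1.79% and 1.70%, a difference of 0.132 points (exact permutation p = 0.1), and without Rpsa the difference was 0.327 points. On length-scaled FPKM values it was 0.0963 points (exact permutation p = 0.2), and as a mean over genes 0.240 points (exact permutation p = 0.2), with overlap between the genotypes in both. Macrophage genes summed to 1045 to 1413 FPKM in wild-type and 920 to 1068 in sgNAT10 tumours, muscle genes to 19.7 to 25.3 and 82.0 to 128, and endothelial genes to 24.4 to 32.5 and 43.8 to 55.2. The part of these cells, and of the liver genes, in the tumour results was not tested, and in bulk RNA fewer cells of a type and less RNA per cell cannot be told apart.

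Among the members tested for share, those with a mean of at least 10 counts, a typical one was a minor form. The median wild-type share was 3.03%, 3.30% and 3.46% in MCA205 cells, TC1 cells and tumours, with quartiles of 0.789% and 11.7%, 0.796% and 11.3%, and 0.745% and 14.1%. Yet 66, 73 and 100 of these tested members exceeded 50% of their gene in wild type. Over all members, 937, 954 and 918 genes had more than 1 transcript of the type, so members are not independent of each other. Only transcripts with a mean of at least 10 counts were tested for share, which left 2453, 2430 and 2340 members and set aside 1837, 1968 and 1948. Around the gene minimum of 100 counts, the median summed share of the type per gene was 3.45%, 4.0% and 8.19% in genes with a lowest library of 90 to 99 counts, and 12.1%, 3.48% and 1.43% in those of 100 to 109 counts, with 9 to 18 genes in each set.

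Estimates were often all or nothing. Of the tested members, 363 (14.8%), 384 (15.8%) and 411 (17.6%) had 0 counts in 1 library and at least 100 in another of the same group, against 8.86%, 9.12% and 12.5% of coding transcripts. The median SD of a share between libraries of a group was 1.45, 1.53 and 1.79 percentage points. Across tested members the median change from wild type to sgNAT10 was 0.0543, -0.0401 and 0.139 points, beside 0.0118, -0.00244 and 0.101 points for all tested transcripts.

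In MCA205 cells 7 members had a called rise in share and 9 a called fall, at a Benjamini-Hochberg adjusted p under 0.05 in limma on log2 odds. The background among all 36818 tested transcripts was 0.111% called higher and 0.12% called lower. Of the 16 called members, 13 had 0 counts in every library of 1 genotype. Groups did not overlap for 254 members higher (10.4%) and 196 lower (7.99%) in sgNAT10, beside 11.3% and 9.87% of all transcripts, so members separated about as often as other transcripts.

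**Figure D2:**
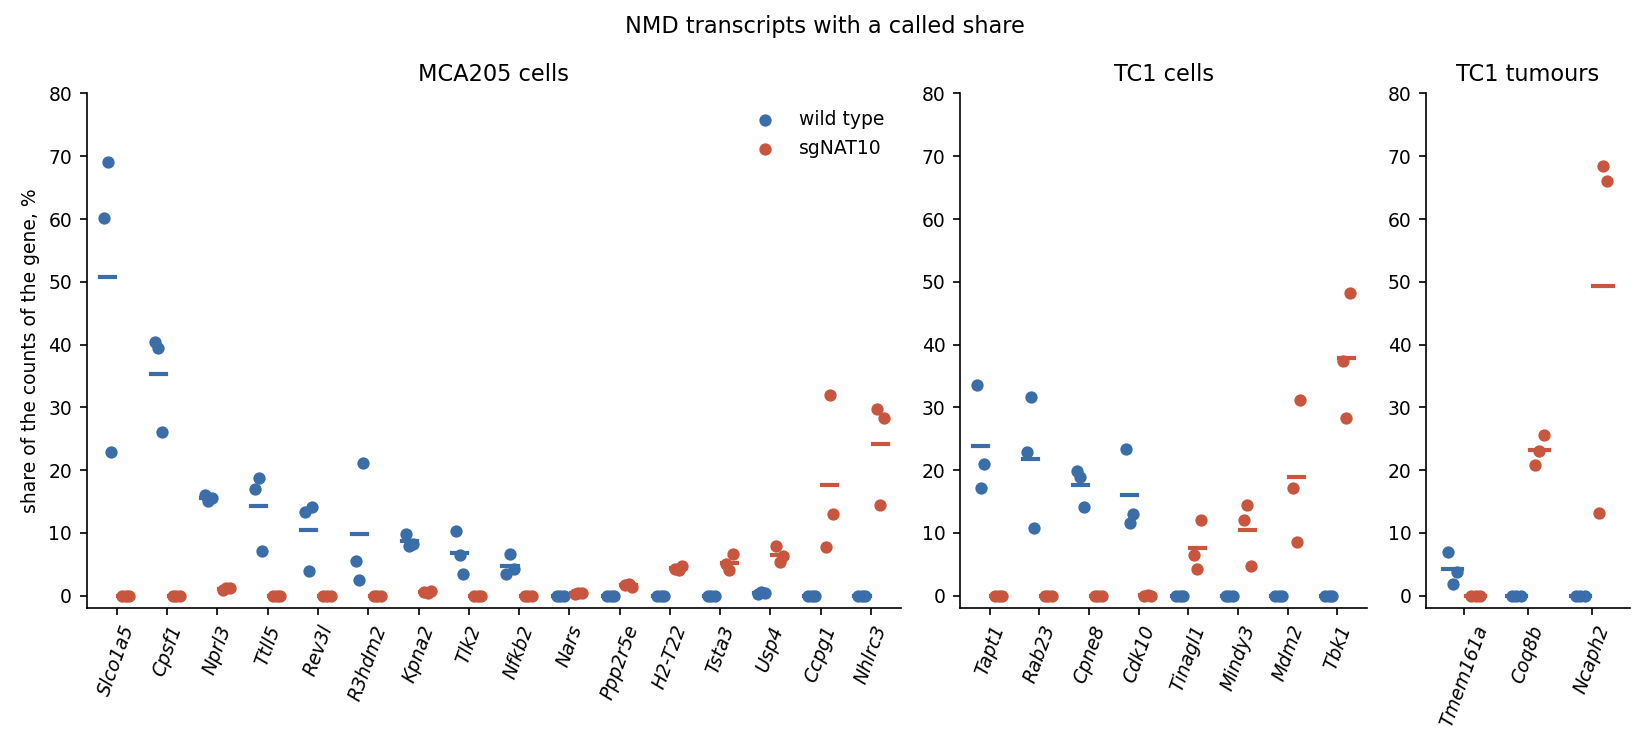
Share of the gene's counts, in percent, for each nonsense-mediated decay transcript with a called share, in the table where it was called; blue dots are the 3 wild-type and red dots the 3 sgNAT10 libraries, with bars at their means. In 23 of the 27 1 genotype sits at 0 in all 3 libraries.

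The rises in MCA205 cells included a transcript of Usp4, a deubiquitinase. It held 0.316%, 0.602% and 0.351% of Usp4 counts in wild type and 7.81%, 5.29% and 6.27% in sgNAT10 (limma adjusted p = 0.0242), from 20, 38 and 20 to 519, 562 and 472 counts. The main coding transcript of Usp4 went the other way, with a mean share of 74.1 ± 6.27% in wild type and 36.2 ± 15.5% in sgNAT10 (SD, n = 3). The rise of the decay transcript, 6.03 percentage points, was smaller than that fall, so other Usp4 transcripts changed in share as well. The H2-T22 transcript, from a class I histocompatibility gene, was at 0 in wild type and at 4.30%, 4.07% and 4.77% in sgNAT10 (limma adjusted p = 0.00214). Nhlrc3 rose from 0 to 29.8%, 14.4% and 28.3%, and Ccpg1, an endoplasmic reticulum autophagy receptor, from 0 to 7.68%, 32.0% and 13.0% (limma adjusted p = 0.00397 and 0.0349). Smaller shares appeared for Tsta3 (4.99%, 4.09% and 6.55%), the phosphatase subunit gene Ppp2r5e (1.67%, 1.80% and 1.39%) and Nars, an asparaginyl-tRNA synthetase (0.259%, 0.350% and 0.400%), each 0 in wild type.

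The falls included Cpsf1, the largest subunit of the complex that recognises the polyadenylation signal. Its transcript held 40.5%, 39.5% and 26.0% of Cpsf1 counts in wild type and 0 in all 3 sgNAT10 libraries (limma adjusted p = 0.000639), and the coding transcript held 52.5% and 85.1%. In the other tables the same transcript was seen in single wild-type libraries, at 6.78% in TC1 cells and 50.8% in tumours, and at 0 in the rest. Nprl3, a subunit of the GATOR1 complex that restrains mTORC1, fell without reaching 0: 16.1%, 15% and 15.5% became 0.851%, 1.19% and 1.13% (limma adjusted p = 0.0073), with 310, 267 and 251 counts against 16, 32 and 20. Kpna2, a nuclear import receptor, fell from 9.84%, 7.87% and 8.23% to 0.528%, 0.386% and 0.686% (limma adjusted p = 0.0153). For both, all libraries of 1 genotype lay clear of the other, and the coding share was higher in sgNAT10: 72.6% against 55.5% for Nprl3, and 99.1% against 90.7% for Kpna2.

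The other falls in MCA205 cells ended at 0 in all 3 sgNAT10 libraries. Their wild-type shares were 60.2%, 69.1% and 22.9% for the transporter gene Slco1a5, 16.9%, 18.6% and 7.06% for the tubulin glutamylase gene Ttll5, and 13.3%, 3.89% and 14.1% for Rev3l, the catalytic subunit of DNA polymerase zeta. R3hdm2 had 5.56%, 2.47% and 21.2%, and the kinase gene Tlk2 10.2%, 6.47% and 3.43%. Nfkb2, which encodes an NF-kappa-B subunit and was named after its values were seen so that each call is given, had 3.48%, 6.68% and 4.16%. The adjusted p-values of these 6 in limma ran from 0.00255 to 0.0322. With 1 library left out at a time, the calls of Cpsf1, Nprl3 and Nfkb2 held in all 6 fits (highest limma adjusted p = 0.0148, 0.0447 and 0.0459). Each of the other 13 was lost in at least 1 fit, and those of Ccpg1, R3hdm2 and Rev3l in all 6. Without MCA205 wild type 1 and sgNAT10 2, the libraries with few liver reads, 0 members were called in limma, in a fit chosen after seeing the data with 2 libraries per genotype.

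In TC1 cells 4 members had a called rise in share and 4 a called fall, against a background of 0.124% higher and 0.14% lower among 37122 transcripts. Of these 8, 7 had 0 counts in all libraries of 1 genotype. Here non-overlapping falls outnumbered rises, 225 (9.26%) against 129 (5.31%), beside 8.36% lower and 7.85% higher for all transcripts. At an unadjusted limma p under 0.05 there were 147 lower (6.05%) and 76 higher (3.13%), beside 4.44% and 4.23% of all transcripts. In MCA205 cells 116 were lower (4.73%) and 163 higher (6.64%), beside 5.83% and 6.78% of all transcripts, which leaned the same way.

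Tbk1, the kinase that activates IRF3 downstream of nucleic acid sensors, had the largest called rise in TC1 cells. Its transcript was at 0 in wild type and held 37.3%, 28.2% and 48.2% of Tbk1 counts in sgNAT10 (limma adjusted p = 0.00131), while the coding share was 97.3% in wild type and 59.5% in sgNAT10. In the other tables the same transcript came and went within a genotype: 35.7%, 0 and 0 in sgNAT10 MCA205 cells, 0, 22.8% and 49.7% in wild-type tumours, and 34.3%, 27.5% and 0 in sgNAT10 tumours. A transcript of Mdm2, the ubiquitin ligase that restrains p53, rose from 0 to 17.2%, 8.53% and 31.2% (limma adjusted p = 0.0043), with the coding share at 66.9% and 39.3%. Mindy3, a deubiquitinase, rose from 0 to 12.1%, 14.5% and 4.71%, and Tinagl1 from 0 to 6.49%, 4.20% and 12.1%.

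The falls in TC1 cells were in Tapt1 (33.6%, 17.1% and 21% in wild type), the GTPase gene Rab23 (22.9%, 31.7% and 10.7%) and Cpne8, a copine (19.8%, 18.9% and 14.2%), all at 0 in sgNAT10. A transcript of the cyclin-dependent kinase gene Cdk10 fell from 23.4%, 11.5% and 13.1% to 0, 0.0886% and 0 (limma adjusted p = 0.0141). In MCA205 cells the same Cdk10 transcript had 0, 0 and 0.483% in wild type and 16.1%, 13.7% and 17.3% in sgNAT10, which was not called there (limma adjusted p = 0.139). With 1 library left out at a time, the TC1 calls of Tbk1, Mdm2, Tinagl1 and Tapt1 held in all 6 fits, with a highest limma adjusted p of 0.0305, and the other 4 were each lost in at least 1 fit.

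In tumours 2 members had a called rise and 1 a called fall, against a background of 0.0566% higher and 0.0889% lower among 37114 transcripts. Ncaph2, a subunit of condensin II, had a transcript at 0 in wild-type tumours and at 13.2%, 68.5% and 66.1% in sgNAT10 (limma adjusted p = 0.0205). It was at 0 in some libraries of each genotype in TC1 cells (0, 63.1% and 65.6%, then 0, 65.3% and 36.2%) and in 1 wild-type MCA205 library. Coq8b, a kinase-like protein of coenzyme Q synthesis, rose from 0 to 20.7%, 23.1% and 25.5% (limma adjusted p = 0.00723), and Tmem161a fell from 6.88%, 1.83% and 3.74% to 0. With 1 library left out at a time, these calls were lost in 5 of 6 fits for Ncaph2, 3 for Coq8b and 6 for Tmem161a. Non-overlapping groups were higher for 273 members (11.7%) and lower for 111 (4.74%), beside 13.5% and 7.44% of all transcripts.

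Grouped by the position of the stop, members leaned in different directions in the 3 tables. The class with the stop in an exon that no coding transcript overlaps was not limited to poison exons. In it, 92 (18.4%) of 500 were higher without overlap in sgNAT10 tumours and 15 (3.0%) were lower, beside 13.5% and 7.44% of all transcripts. Retained-intron transcripts leaned further that way in tumours, with 27.5% higher and 1.96% lower. The same class had 44 (8.16%) of 539 higher and 62 (11.5%) lower in MCA205 cells, and 26 (5.02%) of 518 higher and 68 (13.1%) lower in TC1 cells, beside 11.3% and 9.87%, and 7.85% and 8.36%, of all transcripts. For stops in shared exon sequence the shares were 10.4% and 7.47% in MCA205 cells, 4.85% and 7.01% in TC1 cells, and 8.84% and 5.48% in tumours. Stops in added exon sequence gave 12.8% and 5.43%, 4.90% and 10.3%, and 13.2% and 3.74%. These are counts with no test, and the difference between the classes was not tested.

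**Figure D3:**
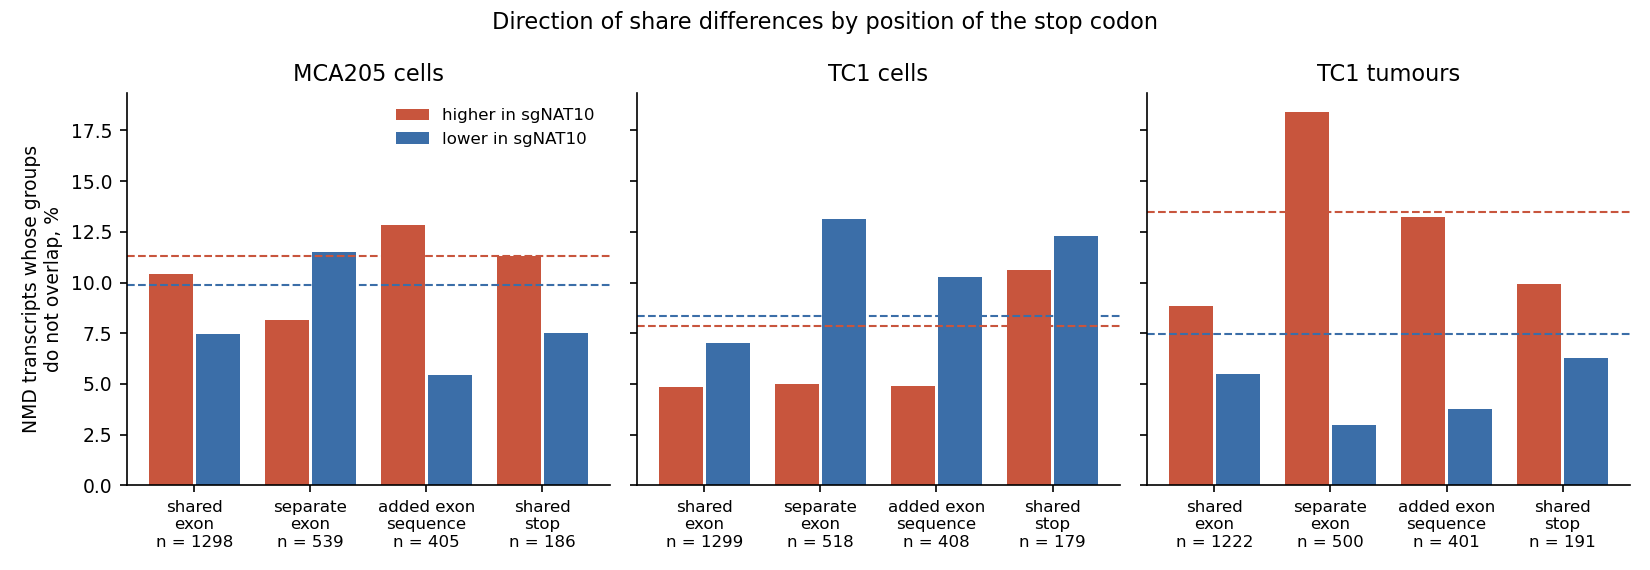
Percentage of tested nonsense-mediated decay transcripts whose sgNAT10 libraries all lie above (higher) or all below (lower) the wild-type libraries, by where the stop codon lies, in the 3 tables; dashed lines are the percentages for all tested transcripts. For stops in exons that no coding transcript overlaps, higher exceeds lower in tumours (18.4% and 3.0%) and lower exceeds higher in TC1 cells (13.1% and 5.02%).

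Tested on counts rather than shares, 63 (2.78%) of 2263 members were higher and 37 (1.63%) lower in MCA205 cells (edgeR, adjusted p under 0.05). In TC1 cells 35 (1.57%) of 2227 were higher and 53 (2.38%) lower. All transcripts, also those in genes under 100 counts, gave larger percentages, 5.71% higher and 4.88% lower, then 4.09% and 4.4%. The whole gene was called in the same direction for 39 of the 63 and 18 of the 37, and for 25 of the 35 and 39 of the 53, and in the opposite direction for 7, 6, 0 and 1. In tumours 0 of 2113 members were called by edgeR, against 0.00447% higher and 0.00223% lower of all transcripts. There 258 members (12.2%) had an unadjusted p under 0.05 in edgeR, below the 17.7% of all transcripts. DESeq2 called 226 members, and its calls over all transcripts are not given here.

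Splicing regulators and ribosomal proteins, the families known for such transcripts, gave no call by share and 0 by count in tumours. By count in MCA205 cells, 1 rise and 3 falls were called among 46 SR and related members. The hnRNP and other regulators had 4 and 2 of 81, and ribosomal proteins 2 and 1 of 20. In TC1 cells these were 0 and 2 of 45, 1 and 1 of 81, and 0 and 4 of 20. In either direction, 4.42% of all members and 10.6% of all transcripts were called in MCA205 cells, and 3.95% and 8.49% in TC1 cells. By share, 33, 34 and 33 members were tested from the list of SR proteins and related genes, which also holds kinases. Groups did not overlap for 2 higher and 8 lower in MCA205 cells, 1 and 8 in TC1 cells, and 8 and 0 in tumours. The hnRNP and other splicing regulators had 14 higher and 8 lower of 64, 1 and 7 of 59, and 13 and 1 of 57. Ribosomal proteins had 5 and 2 of 16, 1 and 9 of 17, and 0 and 1 of 17. All transcripts gave 11.3% higher and 9.87% lower in MCA205 cells, 7.85% and 8.36% in TC1 cells, and 13.5% and 7.44% in tumours. The median changes of the 3 lists were -0.0790, 0.00810 and 0.108 points in MCA205 cells, -0.0926, -0.0802 and -0.454 in TC1 cells, and 0.400, 0.116 and 0.0698 in tumours, beside the medians of all transcripts given above.

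A few members of these lists had opposite differences in MCA205 and TC1 cells. For 13 of 2138 members measured in both lines the change in log2 odds of the share differed between the lines (limma over 12 libraries, adjusted p from 0.00272 to 0.0498), beside 0.453% of all transcripts. In 11 of the 13 the change was higher in MCA205 cells. For Rpl12, Rpl22l1, Srsf6 and Samhd1, described next, the single-line changes in share were not called, so the calls are of the difference.

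Rpl12, a protein of the ribosomal stalk base, held 3.93%, 3.51% and 4.37% in wild-type and 8.99%, 9.04% and 7.53% in sgNAT10 MCA205 cells. In TC1 cells the order was reversed, 12.1%, 11.1% and 11% in wild type and 8.17%, 6.66% and 6.25% in sgNAT10. The libraries did not overlap in either line, and the changes differed by 1.96 ± 0.290 (SE) log2 odds (limma adjusted p = 0.0237). By count this transcript rose in MCA205 cells (log2 change 1.04, edgeR adjusted p = 0.00681). In tumours the genotypes overlapped, at 7.66%, 7.82% and 6.55% and then 7.52%, 7.86% and 8.75%.

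Rpl22l1, a paralogue of the ribosomal protein RPL22, had the wider range. Its transcript held 9.81%, 9.68% and 11.5% in wild-type MCA205 cells and 27.5%, 27.1% and 26.2% in sgNAT10, but 11.4%, 10.5% and 7.54% and then 1.91%, 4.41% and 2.80% in TC1 cells. The difference between lines was 3.53 ± 0.461 (SE) log2 odds (limma adjusted p = 0.0132). Both single changes were called by count, with log2 changes of 1.35 and -2.11 (edgeR adjusted p = 0.0184 and 0.0318). Tumours held 9.68%, 6.54% and 3.29%, then 8.16%, 5.14% and 7.25%, with overlap.

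Srsf6 encodes an SR protein known to limit itself through this kind of transcript. The share was 1.20%, 1.35% and 1.86% in wild-type and 3.42%, 2.99% and 3.09% in sgNAT10 MCA205 cells, and 3.81%, 3.22% and 3.35% against 0.904%, 1.26% and 1.05% in TC1 cells. The changes differed by 2.89 ± 0.354 (SE) log2 odds (limma adjusted p = 0.0105), and by count the transcript rose in MCA205 cells (log2 change 0.96, edgeR adjusted p = 0.0349) and fell in TC1 cells (-1.29, edgeR adjusted p = 0.0177). Samhd1, an enzyme that hydrolyses deoxynucleoside triphosphates, had 2.02%, 3.82% and 3.12% against 6.25%, 8.41% and 7.98% in MCA205 cells. In TC1 cells it had 4.93%, 4.08% and 3.12% against 1.48%, 2.09% and 2.05%, a difference between the lines of 2.57 log2 odds (limma adjusted p = 0.0498). In tumours the Samhd1 transcript held 5.98%, 8.71% and 7.84% in wild type and 13.3%, 13.5% and 14.9% in sgNAT10, higher without overlap as in MCA205 cells. With 1 of the 12 libraries left out at a time, the differences of Rpl22l1 and Srsf6 stayed called in all 12 fits (highest limma adjusted p = 0.0410 and 0.0330), that of Rpl12 was lost in 9 and that of Samhd1 in 12.

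**Figure D4:**
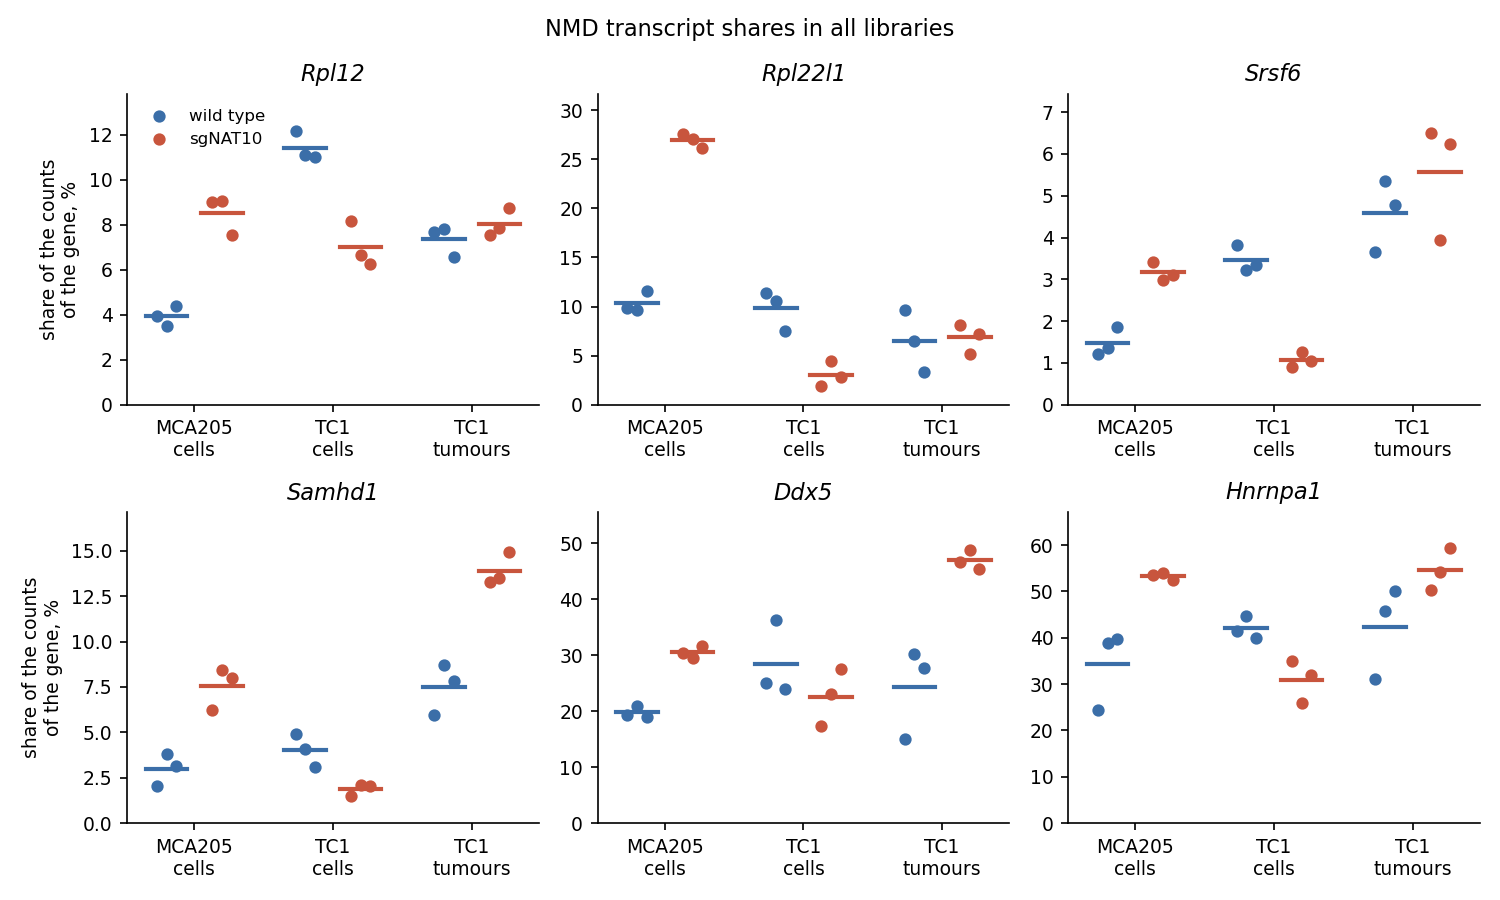
Share of the gene's counts, in percent, of single nonsense-mediated decay transcripts in all 18 libraries, by table; blue dots are wild-type and red dots sgNAT10 libraries, and short bars are means of 3. Rpl12, Rpl22l1, Srsf6 and Samhd1 are higher in sgNAT10 MCA205 cells and lower in sgNAT10 TC1 cells.

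Ddx5 and Hnrnpa1 were chosen after their values were seen, as members that contributed to the tumour difference. The Ddx5 transcript held 19.4%, 21% and 19.0% in wild-type and 30.5%, 29.6% and 31.7% in sgNAT10 MCA205 cells, and 15%, 30.1% and 27.7% against 46.7%, 48.8% and 45.5% in tumours, without overlap in both. In TC1 cells it overlapped, at 25.1%, 36.3% and 24% and then 17.3%, 23% and 27.5%. Hnrnpa1, an abundant RNA-binding protein that represses exons, had 24.3%, 38.8% and 39.8% against 53.5%, 54.0% and 52.4% in MCA205 cells, 41.5%, 44.8% and 40.0% against 35.0%, 26.0% and 31.9% in TC1 cells, and 31.2%, 45.9% and 50.1% against 50.4%, 54.1% and 59.3% in tumours. No share change of either gene was called, and by count Ddx5 rose in MCA205 cells (log2 change 0.47, edgeR adjusted p = 0.00753) and Hnrnpa1 fell in TC1 cells (-0.85, edgeR adjusted p = 0.0408).

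Among other splicing regulators, the transcript of Rbmx, an X-linked hnRNP, rose by count in both lines, with log2 changes of 0.66 in MCA205 and 1.74 in TC1 cells (edgeR adjusted p = 0.0291 and 0.0144). Its gene rose too (log2 changes 0.46 and 1.67, edgeR adjusted p = 0.00372 and 0.000209), and its share overlapped between the genotypes in TC1 cells. In MCA205 cells a transcript of Tial1, a regulator that binds U-rich introns, fell (log2 change -1.53, edgeR adjusted p = 0.00934) with shares of 21.8%, 22.7% and 28.0% against 8.93%, 6.55% and 6.38%. Rsrc2 (14.7%, 14.4% and 12.9% against 5.35%, 6.44% and 7.16%) and Luc7l2, a U1 snRNP-associated protein (13.9%, 18.5% and 16.9% against 8.00%, 9.57% and 9.73%), fell as well, with log2 changes of -1.01 and -0.85 (edgeR adjusted p = 0.0242 and 0.0249). Hnrnpd, also called AUF1, rose from 2.71%, 3.03% and 2.74% to 4.99%, 6.34% and 6.55% (log2 change by count 0.95, edgeR adjusted p = 0.0201). The shares of Tial1, Rsrc2, Luc7l2 and Hnrnpd did not overlap between the genotypes.

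In TC1 cells the count calls among the 20 members from ribosomal protein genes were 4 falls and 0 rises. Of all transcripts there, 4.4% were called lower and 4.09% higher. Rpl10a fell with shares of 7.75%, 11.5% and 11% against 2.96%, 5.57% and 4.47% (log2 change by count -1.75, edgeR adjusted p = 0.0111). Rps9 had 6.28%, 5.11% and 6.39% against 1.86%, 2.55% and 2.92% (-1.34, edgeR adjusted p = 0.0127), and Rps19 11%, 10.04% and 6.97% against 2.99%, 4.43% and 4.20% (-1.42, edgeR adjusted p = 0.0207). Rpl22l1 was the other fall. In MCA205 cells the rises were those of Rpl12 and Rpl22l1.

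Members from interferon-response genes, 22 in each line, had 7 count rises and 0 falls in MCA205 cells and 0 calls in TC1 cells. All transcripts gave 5.71% higher and 4.88% lower in MCA205 cells, and 4.09% and 4.4% in TC1 cells. Whole-gene levels were higher too for the members described. The Xaf1 transcript rose by count (log2 change 3.56, edgeR adjusted p = 0.00256) beside a whole-gene log2 change of 2.65, while its share went from 2.50%, 2.28% and 2.38% to 4.33%, 5.09% and 4.26%. For Oas1g, a gene of the oligoadenylate synthetase family that senses double-stranded RNA, the log2 change was 3.37 for the transcript (edgeR adjusted p = 0.00158) and 2.30 for the gene, with shares of 19.9%, 22.8% and 21.3% against 53.2%, 47.5% and 34.2%. H2-T22 also had a whole-gene log2 change of 1.79. With 1 library left out at a time, the count calls of Xaf1, Oas1g, Tial1, Ddx5 and Rpl12 in MCA205 cells held in all 6 fits, and every other count call named for a single transcript above was lost in 1 to 6 of them. By share, 6 of the 13 tested members of the list were higher without overlap and 1 lower in MCA205 cells, 0 and 2 of 13 in TC1 cells, and 5 and 0 of 17 in tumours, beside 11.3% and 9.87%, 7.85% and 8.36%, and 13.5% and 7.44% of all transcripts.

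The genotype effects of the lines shared few members. Of 2138 members tested in both lines, 15 and 6 were called by share in MCA205 and TC1 cells, and 0 in both. Groups did not overlap for 407 members in MCA205 cells and 323 in TC1 cells. In 25 of these the direction was the same (6.14% and 7.74% of each list), and in 46 it was opposite (11.3% and 14.2%). Among all 33086 transcripts measured in both lines the numbers were 546 and 765, so opposite directions outnumbered equal ones there too.

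For tumours against TC1 cells the change in share differed for 1 of 1994 members, a transcript of the kinetochore gene Cenpl (-7.51 log2 odds, limma adjusted p = 0.00953), beside 0.166% of all transcripts.

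Genes that carry out the decay, and genes known to be degraded by it as a whole, were counted at the level of the gene. Among all genes edgeR called 21.2% higher and 19.4% lower in MCA205 cells, 15.9% and 22% in TC1 cells, and 7.65% and 9.72% in tumours. Of 23 core factors, 6 rose and 11 fell in MCA205 cells, 4 rose and 6 fell in TC1 cells, and 0 rose and 5 fell in tumours. Of 10 exon junction complex genes, 0 rose and 7 fell, 1 rose and 3 fell, and 0 rose and 4 fell. Of 19 decapping and exonuclease genes, 5 rose and 5 fell, 3 rose and 5 fell, and 0 rose and 1 fell. The tumour calls, 10 in all, rested on single libraries: 0 were left without sgNAT10 2, 1 without sgNAT10 1, and 2 without sgNAT10 3 or without wild type 2.

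Upf3b, which bridges UPF1 to the exon junction complex, rose in both lines, from 6.89 ± 0.207 to 11.6 ± 0.668 FPKM in MCA205 cells and from 6.83 ± 0.482 to 12.7 ± 1.25 in TC1 cells (SD, n = 3, edgeR adjusted p = 0.000108 and 0.0011). Upf1 itself was not called, at 40.2 ± 1.01 and 38.6 ± 0.773 FPKM in MCA205 cells (SD, n = 3). Smg6, the endonuclease of the pathway, fell in both lines, with log2 changes of -0.29 and -0.67 (edgeR adjusted p = 0.0027 and 0.000755). In tumours Upf3b and Smg6 were not called, and their log2 changes had the other sign, -0.36 and 0.38 (edgeR adjusted p = 0.279 and 0.163). The tumour changes differed from those in TC1 cells by -1.29 for Upf3b and 0.987 for Smg6 (edgeR over 12 libraries, adjusted p = 0.00437 and 0.00418). Magohb, a core subunit of the exon junction complex, fell from 19.0 ± 0.556 to 8.25 ± 0.497 FPKM in MCA205 cells and from 18 ± 0.879 to 13.0 ± 1.44 in TC1 cells (SD, n = 3, edgeR adjusted p = 0.000108 and 0.0223). Rnps1, a peripheral component of that complex, fell in all 3 tables, with log2 changes of -0.31, -0.80 and -0.75 (edgeR adjusted p = 0.000809, 0.000172 and 0.0151). In tumours Eif4a3, the helicase that anchors the complex to RNA, fell from 93.5 ± 4.06 to 58.5 ± 4.26 FPKM (SD, n = 3, edgeR adjusted p = 0.0099). The tumour call of Eif4a3 was lost without sgNAT10 2, and that of Rnps1 without wild type 2 or any single sgNAT10 library.

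Known whole-gene targets went in opposite directions in the lines. Of 20 such genes, 10 rose and 1 fell in MCA205 cells, 0 rose and 15 fell in TC1 cells, and 1 rose and 0 fell in tumours. Their median log2 changes were 0.25, -0.91 and -0.16, beside -0.03, -0.08 and 0.02 for all genes. The change differed between MCA205 and TC1 cells for 15 of the 20 (edgeR over 12 libraries), beside 36.0% of all genes, and between tumours and TC1 cells for 7, beside 28.2%. Many of these genes also respond to other signals, Atf4, Trib3 and Chac1 to amino acid and endoplasmic reticulum stress, and what moved them was not tested.

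**Figure D5:**
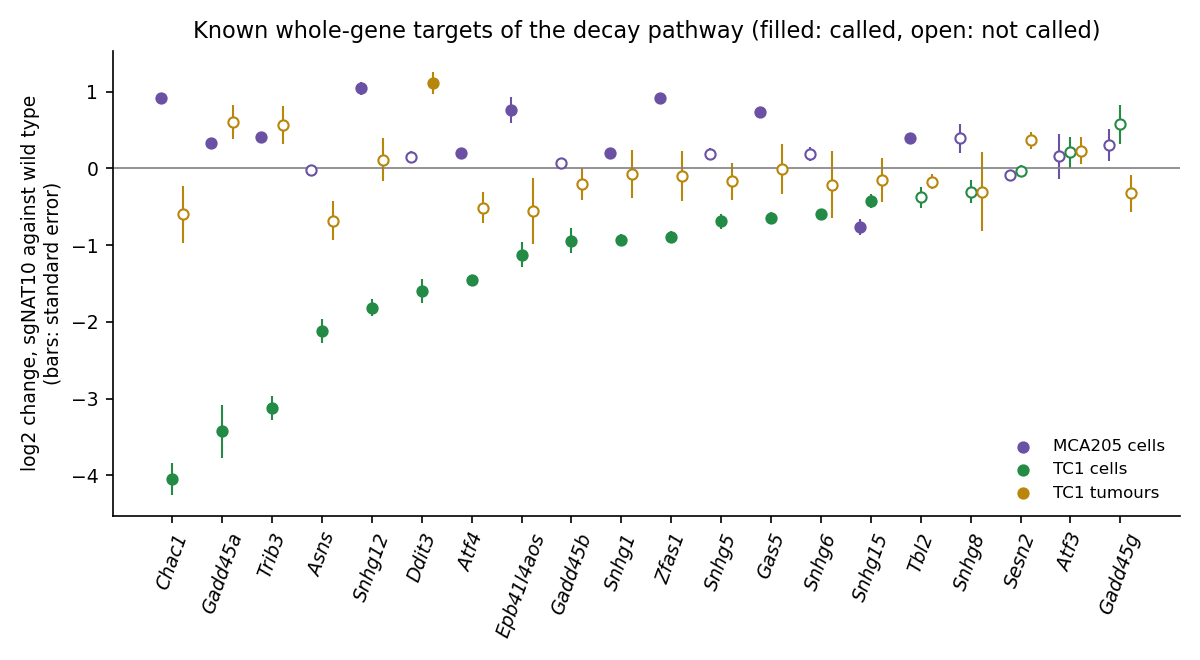
Log2 change of whole-gene counts, sgNAT10 against wild type, for the known whole-gene targets of nonsense-mediated decay in the 3 tables; filled dots were called by edgeR, open dots were not, and bars are standard errors. Snhg12 (1.05 and -1.82) and Chac1 (0.91 and -4.05) lie above 0 in MCA205 cells and below 0 in TC1 cells.

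Gas5, a host of small nucleolar RNAs whose short frame makes it a classical target, was 136, 137 and 160 FPKM in wild-type and 254, 257 and 212 in sgNAT10 MCA205 cells. In TC1 cells it was 197, 188 and 217 against 104, 106 and 102. The groups did not overlap in either line (edgeR adjusted p = 0.000172 and 0.0008), and the changes differed by 1.34 on the log2 scale. Zfas1 and Snhg12, hosts of the same kind, rose from 56.3 ± 2.89 to 109 ± 3.14 and from 11.4 ± 1.03 to 29.5 ± 4.48 FPKM in MCA205 cells. They fell from 93.3 ± 6.53 to 54.6 ± 4.41 and from 32.9 ± 4.50 to 9.35 ± 0.613 in TC1 cells (SD, n = 3, edgeR adjusted p from 5.53e-05 to 0.000262). Snhg1 also rose in MCA205 and fell in TC1 cells (log2 changes 0.20 and -0.93, edgeR adjusted p = 0.00569 and 0.000181). Snhg15 fell in both lines, with log2 changes of -0.76 and -0.42 (edgeR adjusted p = 0.00116 and 0.0111). Snhg5, Snhg6 and Snhg8 were not called in MCA205 cells (edgeR adjusted p = 0.109, 0.158 and 0.15). In TC1 cells Snhg5 and Snhg6 fell (log2 changes -0.69 and -0.60, edgeR adjusted p = 0.00221 and 0.000761), and Snhg8 was not called (edgeR adjusted p = 0.153).

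Atf4, the transcription factor of the integrated stress response whose upstream frames make it a target, rose from 436 ± 4.65 to 501 ± 8.61 FPKM in MCA205 cells and fell from 391 ± 19.3 to 146 ± 4.13 in TC1 cells (SD, n = 3, edgeR adjusted p = 0.00394 and 2.17e-05). Chac1, a glutathione-degrading enzyme, had log2 changes of 0.91 and -4.05, and Trib3, a pseudokinase, 0.40 and -3.12, all called by edgeR (adjusted p from 1.89e-05 to 0.00179). In tumours Ddit3, the transcription factor CHOP, was the rise, from 35.9 ± 0.504 to 83.3 ± 12.8 FPKM (SD, n = 3, edgeR adjusted p = 0.00627), whereas it fell in TC1 cells with a log2 change of -1.60 (edgeR adjusted p = 0.00041).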

How the data were processed

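RNA of 18 libraries was analysed from 3 deposited tables, which list transcripts with FPKM and estimated counts, per the file headers. FPKM as deposited are scaled to length and depth. Estimated counts were deposited as whole numbers; which program assigned reads to transcripts was not given in the sources used here. Per the submitters' processing notes, featureCounts, Bowtie2, Trim Galore and FastQC were used with mm10. Columns labelled KO were taken as sgNAT10. 0 columns were without a sample.

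Shares were tested with limma on log2 odds, with 0.5 added to both parts, and counts with edgeR quasi-likelihood tests and TMM factors, over the 6 libraries of a table. Differences between tables used 12 libraries, each effect within its table. Adjustment (Benjamini-Hochberg) covered all transcripts or genes. In simulations at the spread of these tables the share test missed nearly all moderate changes, so a transcript without a call may have changed. Its false calls exceeded the nominal rate, so some of the called shares may be false. Short relatives, overlapping genes and strand rest on the authors' assignment. Members, gene lists and the naming rule (up to 8 largest called rises and falls, list members, differences between tables) were chosen with earlier results of these data known. The tools were matplotlib 3.10.9, pandas 2.3.3 and numpy 2.4.6 in Python 3.11.15, and limma 3.58.1, edgeR 4.0.16 and DESeq2 1.42.0 in R 4.3.3. The values of 1 transcript chosen by the naming rule are left out here.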

Additional observations from a re-analysis of the deposited data

Results flagged for a closer look

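Members are given here because their change in share differed between tables in limma (adjusted p under 0.05 over all transcripts). For MCA205 cells against TC1 cells the differences in log2 odds were 16.41 for Cdk10, 15.02 for H2-T22, 10.85 for Platr25, 9.87 for Nhlrc3, 8.30 for Ppp2r5e, 3.53 for Rpl22l1, 2.89 for Srsf6, 2.63 for Gm14296, 2.57 for Samhd1, 2.43 for Slc35b1 and 1.96 for Rpl12. Those below 0 were -11.15 for R3hdm2 and -15.67 for Tinagl1. For H2-T22, Nhlrc3, Platr25, Ppp2r5e, R3hdm2, Tinagl1 and Cenpl a group was at 0 counts in all libraries, and for Cdk10 groups were at 0 in most, where the size is set by the amount added to the odds. Slc35b1, a nucleotide sugar transporter, held 11.2%, 12% and 12% in wild-type and 20.6%, 33.7% and 24% in sgNAT10 MCA205 cells, and 20.0%, 22.7% and 16.2% against 11.1%, 11.2% and 9.30% in TC1 cells. For tumours against TC1 cells the difference was -7.51 for Cenpl.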

How the results depend on the processing

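Leaving out 1 library left between 6 and 18 members called by share in MCA205 cells (16 with all libraries), 7 to 12 in TC1 cells (8) and 2 to 6 in tumours (3). MCA205 wild type 1 and sgNAT10 2 left out together left 0. The lowest MCA205 numbers were 6 without sgNAT10 1 and 9 without sgNAT10 3, and 6 were called in tumours without wild type 2 or wild type 3. Count calls fell to 45 to 68 in MCA205 cells (100) and 33 to 79 in TC1 cells (88), with 0 throughout in tumours. They were 52, 62, 46, 47 and 45 without MCA205 wild type 2, wild type 3, sgNAT10 1, sgNAT10 2 and sgNAT10 3, and 34, 38, 36, 33 and 33 without TC1 wild type 1, 2, 3, sgNAT10 2 and sgNAT10 3. Both MCA205 libraries left out together left 11. Decay genes called in tumours (10) ran from 0 to 13, with 2, 1, 0 and 2 without wild type 2, sgNAT10 1, sgNAT10 2 and sgNAT10 3. Known targets in tumours (1) ran from 1 to 4, with 2 and 4 without wild type 1 and 3. For tumours against TC1 cells (1) the range was 3 to 11, the highest without tumour wild type 2, and for MCA205 against TC1 cells (13) 9 to 19.

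Share calls in MCA205 cells, TC1 cells and tumours were 39, 38 and 26 with diffSpliceDGE, and 5, 5 and 1 at a transcript mean of 50 counts. An arcsine scale gave 9 and 2 in the cell lines, no transcript minimum 14 in TC1 cells and 7 in tumours, plain eBayes 14 and 10 there, and 0.1 added to both parts 7 in tumours and 2 for tumours against TC1 cells. Count calls were 337, 228 and 226 with DESeq2, 40 and 36 in the cell lines without an expression filter, and 4 in tumours at 1 CPM in 3 libraries. DESeq2 called 17 decay genes and 4 known targets in tumours. Calls over all transcripts or genes under these alternatives are not given here, so these numbers are not set against a background. The difference in summed share was 0.250 and -0.182 points in MCA205 and TC1 cells as a mean over genes. In tumours it was 0.240 as a mean over genes and 0.0963 on FPKM, 0.899 within genes that have such a transcript, 0.132 without the Gbp genes and 0.327 without Rpsa. The Gbp, Rpsa and paired-library alternatives were chosen after seeing the data. In the cell lines, where the genotypes overlapped, the sign of this difference changed: it was -0.0271 in MCA205 cells, but 0.250 as a mean over genes and 0.00577 on FPKM. In TC1 cells it was 0.00897, but -0.182 as a mean over genes, -0.00140 on FPKM and -0.0396 within genes that have such a transcript. The sign also changed without MCA205 wild type 2, TC1 wild type 2 or TC1 sgNAT10 3. No call of a named transcript reversed direction. The causes of these changes were not tested.

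With the replicate number as a block, share calls were 0, 0 and 0 and count calls 4 and 0 in the cell lines. Decay genes in tumours were 2, and differences in share 1 for MCA205 and 0 for tumours against TC1 cells. Same-numbered libraries did not deviate together in their shares (correlations from -0.0662 to 0.0125). On gene levels in MCA205 cells their correlations were -0.514, -0.564 and 0.267, and wild type 1 with sgNAT10 2 gave 0.674. Whether libraries share a culture or batch is not settled by these correlations.

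Few counts limit minor transcripts, and shares of 0 rest on how reads were assigned to transcripts.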
